A study of Mus musculus with 8 samples.

Results

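The genes described here are 38 listed Hox genes of the mouse, those of the HoxA, HoxB, HoxC and HoxD clusters, among 21000 protein-coding genes with a curated RefSeq transcript. They were taken by name, under a rule that uses no measured value, and all 38 were found in the annotation: 10 in HoxA, 10 in HoxB, 9 in HoxC and 9 in HoxD. The study used ATAC-seq, in which a transposase cuts accessible DNA, on nuclei of lens epithelium and lens fiber cells that had been microdissected from CD1 mice at the embryonic stage E14.5 and at P0.5, just after birth. Each of the 4 groups had 2 libraries, each made from the lenses of several animals, and the labels name no allele or treatment in any group. The deposited peak lists are pooled over the libraries of a group, so there is 1 peak list per group and no spread between libraries can be given for any value below. The differences below are therefore differences between 4 lists, with no test.

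Hox genes encode homeodomain transcription factors that give cells along the head-to-tail axis their position. Within a cluster the genes stand in the order of their domains: paralogue groups 1 to 4 act in the hindbrain and neck, 5 to 8 in the trunk, and 9 to 13 in the lumbar region, tail, limbs and genitalia. In cells that do not use them, the clusters are held silent by Polycomb complexes, while Trithorax complexes keep them active where they are used. The lens forms from head ectoderm that lies in front of the Hox expression domains.

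Peaks were placed at a gene when they overlapped by at least 1 bp its promoter, meaning the 2 kb on both sides of a curated transcription start site, or its gene body. Strength was read within a list only, as the percent rank: the place of a peak when its list is ordered by the authors' fold enrichment over local background, as a percent of the list. A low percent rank is a strong peak. The lists held 100003 peaks in epithelium and 123743 in fibers at E14.5, and 58592 in epithelium and 62995 in fibers at P0.5. They covered 1.4%, 2.25%, 0.742% and 0.677% of the genome in that order, and the share of peaks with a q value under 0.001 was 80.5% to 87.9% in the first 3 lists and 48.9% in P0.5 fibers. The lists carry no read totals, and those the study gives per library were not used here, so calls were not adjusted for depth and no call in a list does not show that the chromatin was closed.

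The sequences below are examples of promoters among the Hox genes. The Hoxd13 and Hoxd1 promoters had a peak in all 4 lists, and the Hoxb4 promoter had none. Hoxd13 patterns digits and genitalia, Hoxd1 acts in sensory neurons, and Hoxb4 is known from blood stem cells and the neck vertebrae. Each is the plus strand of GRCm38 (mm10) from 250 bases before to 50 bases after the start site, from RefSeq, with every CpG in capitals. CpG is the dinucleotide that clusters in the islands at many promoters and on which Polycomb complexes gather.
Hoxd13, chr2:74667975-74668274: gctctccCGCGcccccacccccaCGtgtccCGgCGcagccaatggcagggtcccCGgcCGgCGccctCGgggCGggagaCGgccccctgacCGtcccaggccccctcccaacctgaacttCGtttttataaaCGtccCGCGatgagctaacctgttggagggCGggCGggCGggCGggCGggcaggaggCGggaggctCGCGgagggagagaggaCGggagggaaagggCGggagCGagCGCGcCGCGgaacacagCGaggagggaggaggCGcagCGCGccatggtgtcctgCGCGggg
Hoxd1, chr2:74762730-74763029: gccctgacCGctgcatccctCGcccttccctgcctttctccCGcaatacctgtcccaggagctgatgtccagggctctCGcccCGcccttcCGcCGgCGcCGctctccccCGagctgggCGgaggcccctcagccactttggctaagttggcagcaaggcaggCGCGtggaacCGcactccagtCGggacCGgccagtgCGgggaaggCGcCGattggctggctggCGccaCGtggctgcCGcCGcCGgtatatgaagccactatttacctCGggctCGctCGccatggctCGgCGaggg
Hoxb4, chr11:96318017-96318316: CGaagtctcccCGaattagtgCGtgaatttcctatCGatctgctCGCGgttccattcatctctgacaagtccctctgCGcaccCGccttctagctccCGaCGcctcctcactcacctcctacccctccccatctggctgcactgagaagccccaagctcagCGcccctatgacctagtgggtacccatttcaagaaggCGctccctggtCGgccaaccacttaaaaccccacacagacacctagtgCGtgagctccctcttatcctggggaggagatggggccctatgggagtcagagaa
The Hoxd13 window held 37 CpGs at 74.3% GC and the Hoxd1 window 29 at 69.7%, against 14 at 58.0% for Hoxb4. Over windows of this length, the median was 14.0 CpGs both for the 38 Hox genes, with a range of 3 to 45, and for all protein-coding genes. Hoxb4 was thus at the median for this window, although the 1 kb around its start was not CpG-rich by the rule given later, at 54.0% GC and an observed to expected CpG ratio of 0.494.

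Fewer Hox promoters had a peak in P0.5 epithelium than in any other list. Of the 38 genes, E14.5 epithelium had a peak at 23 promoters (60.5%), against 70.3% of all protein-coding genes. In E14.5 fibers 28 (73.7%) had one, against 71.2%. In P0.5 epithelium 10 (26.3%) had one, against 67.0%, and in P0.5 fibers 25 (65.8%), against 64.6%. The share of Hox genes thus lay well under the background in P0.5 epithelium, although that list was nearly as long as that of P0.5 fibers. In both fiber lists it lay close to the background, but this did not hold under every rule. With q under 0.001 it held for E14.5 fibers, with 28 Hox promoters (73.7%), against 70.1% of all genes. P0.5 fibers then had 12 (31.6%), against 58.6%. With the lists cut to equal numbers of peaks the Hox counts were 17, 17, 10 and 21, against 66.8%, 66.7%, 67.0% and 64.1% of all genes, so that both E14.5 lists, at 44.7% of the Hox genes, were under the background as well. With gene bodies included, the Hox counts were 25, 30, 11 and 25, against 75.2%, 75.9%, 71.9% and 70.6% of all genes.

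Against genes of like promoter sequence the Hox genes stood lower in every list. A promoter was called CpG-rich when the 1 kb around a start site had at least 50% GC and an observed to expected CpG ratio of at least 0.6, which held for 24 of the 38 Hox genes (63.2%) and for 10534 protein-coding genes (50.2%). Promoter peaks were called at 16 of these 24 Hox genes in the E14.5 epithelial list, where 98.4% of all CpG-rich promoters had one. In E14.5 fibers 19 did, against 98.8%. In P0.5 epithelium 8 did, against 97.4%, and in P0.5 fibers 17, against 95.9%. The CpG-rich Hox promoters without any call were those of Hoxb5, which acts in the enteric nervous system, of Hoxc8, which acts in spinal motor neurons, and of Hoxc12.

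**Figure D1:**
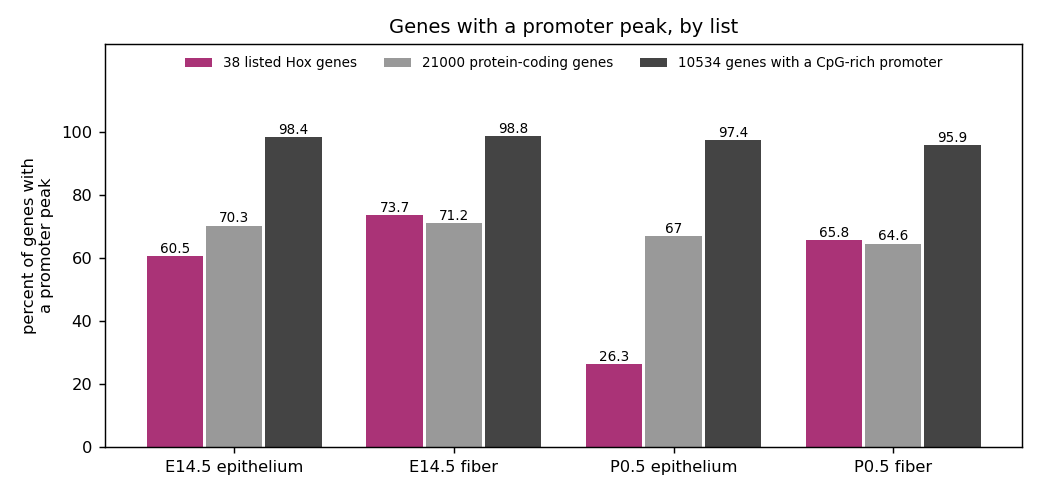
Percent of genes with a promoter peak (y axis) in each pooled list (x axis), for the 38 listed Hox genes, all 21000 protein-coding genes and the 10534 genes with a CpG-rich promoter. The bar of the Hox genes falls to 26.3% in P0.5 epithelium, while that of CpG-rich promoters stays at or above 95.9% in every list.

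Where Hox promoters had peaks, the peaks were weak. The median percent rank of the best peak at the promoter or gene body, over the Hox genes that had one, was 46.8 in epithelium and 35.1 in fibers at E14.5, and 75.7 in epithelium and 34.7 in fibers at P0.5. Over all protein-coding genes with a peak it was 7.91, 6.38, 13.3 and 11.4. Promoter peaks alone gave medians of 43.5, 35.1, 81.2 and 48.9 for Hox genes, against 7.68, 6.1, 12.8 and 10.3. The order of the P0.5 lists depended on the threshold, since with q under 0.001 the median over promoters and gene bodies was 44.3 in epithelium, over 6 genes, and 54.0 in fibers, over 13. Across the lists, 1 Hox promoter peak, that of Hoxa3 in E14.5 fibers at 9.88, was among the strongest 10% of its list, while 27.7% to 47.5% of all genes had a promoter peak that strong in a given list. Within the strongest 20% there were 1, 6, 0 and 4 Hox promoters, against 55.0%, 58.1%, 45.7% and 47.8% of all genes. In P0.5 fibers 8 Hox peaks share the lowest fold enrichment of that list, a tie of 8.67% of its peaks that sets their percent rank to 91.3.

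**Figure D2:**
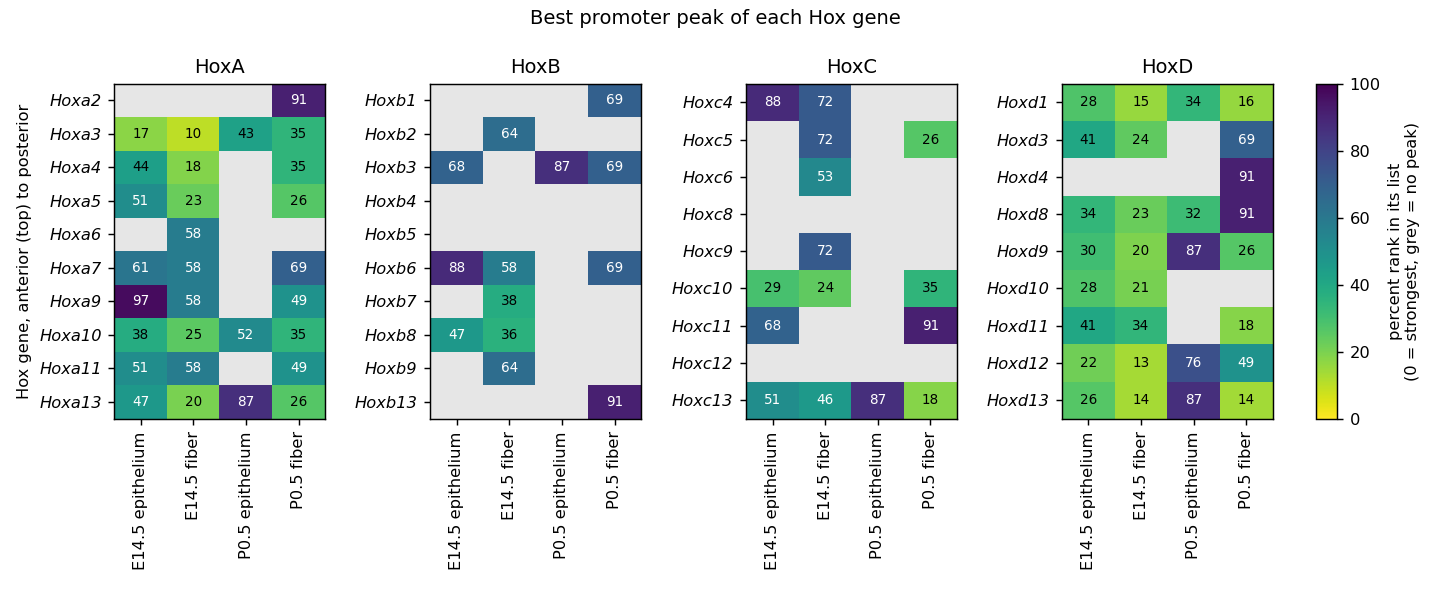
Percent rank of the best promoter peak (color and number, 0 being the strongest peak of a list) for each of the 38 Hox genes (rows, by cluster) in the 4 lists (columns), with grey where no promoter peak was called. The column of P0.5 epithelium is grey for 28 genes, and the HoxD rows hold most of the low numbers.

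Few Hox promoters were constant across the lists. Promoter peaks were called in all 4 lists at 9 Hox genes, namely Hoxa3, Hoxa10, Hoxa13, Hoxc13, Hoxd1, Hoxd8, Hoxd9, Hoxd12 and Hoxd13, or 23.7% of them, against 60.6% of all protein-coding genes. Of these 9, 5 are HoxD genes and 6 are posterior genes. A further 10 had one in 3 lists, 5 in 2 lists and 10 in 1 list. The genes with none in any list were 4, Hoxb4, Hoxb5, Hoxc8 and Hoxc12, or 10.5%, against 25.5% of all genes. The remaining Hox genes, called in 1 to 3 lists, were thus the larger part, whereas most other genes were called in all lists or in none.

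Hoxd13 had percent ranks of 26.4 in epithelium and 13.6 in fibers at E14.5, and 86.7 in epithelium and 14.0 in fibers at P0.5. Its peak was 714, 903, 197 and 800 bp wide in the same order, and the merged region, chr2:74668010-74668912, has its summit 298 bp into the gene, in an exon. The peak of P0.5 epithelium was thus the narrowest of the 4 and had the weakest percent rank. Hoxd1 had percent ranks of 27.7, 15.3, 33.9 and 15.7 in the same order, at chr2:74762672-74763558, over its start site. Hoxd1 was strong in all lists as Hox promoters go, with −log10 q values of 17.0, 40.2, 11.3 and 7.41. Hoxd9, a gene of the limb and lumbar region, followed the pattern of Hoxd13 at 30.5, 19.5, 86.7 and 26.4, under peaks of 1124, 1267, 107 and 501 bp.

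Hoxa13, the HoxA counterpart of Hoxd13 in limb and genital tract, had percent ranks of 46.8, 20.1, 86.7 and 26.4 at chr6:52259826-52261035. Hoxc13, which is needed for hair and nails, had 50.8, 45.8, 86.7 and 18.2, but from different sites: the region called in P0.5 fibers, chr15:102921262-102922285, lay inside the gene and the region called in P0.5 epithelium, chr15:102920787-102920960, lay before its start. Hoxa13, Hoxb3, Hoxc13, Hoxd9 and Hoxd13 had 1 fold enrichment in common in P0.5 epithelium, 3.82, and with it 1 weak percent rank. Hoxb13, the remaining gene of paralogue group 13, known from the prostate, had a single call, in P0.5 fibers at 91.3.

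Hoxd8 went against this order. Its percent ranks were 33.9 in epithelium and 22.8 in fibers at E14.5, and 31.6 in epithelium and 91.3 in fibers at P0.5, and the width fell from 1298 bp in E14.5 fibers to 107 bp in P0.5 fibers. Hoxd8, which patterns the trunk, was thus the Hox promoter with the strongest peak of P0.5 epithelium and one of the weakest of P0.5 fibers. Hoxa3, needed for the thymus and parathyroid, had 17.3, 9.88, 42.9 and 34.7. The peaks of its first 3 lists lay at chr6:52211298-52211976, with the summit 1315 bp into the gene, in an intron, and the peak of P0.5 fibers lay at the start site itself, at chr6:52212991-52213321. The call in all 4 lists at Hoxa3 therefore joins separate sites.

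Hoxd12 and Hoxa10 joined separate sites as well. Hoxd12, a limb gene, had percent ranks of 21.7, 13.3, 75.7 and 48.9, the first 3 at chr2:74672597-74673234, which lies 1877 bp before the gene, and the last in a region over its start, chr2:74674849-74675715, with the summit 675 bp into the gene. Hoxa10, a gene of the uterus, had 38.1, 25.2, 52.3 and 34.7, the first 3 at chr6:52240287-52240772, in an exon, and the last at chr6:52241534-52241648, before it. Of the 9 promoters called in all 4 lists, 5 therefore had 1 site in common to all lists, and Hoxa3, Hoxa10, Hoxc13 and Hoxd12 did not. In each of these 4 the site missing from P0.5 fibers was the one called in P0.5 epithelium.

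Outside the Hox promoters, 1 site at a Hox gene stood above every Hox promoter in both epithelial lists. An intronic region of Hoxd3, which patterns the neck vertebrae, had percent ranks of 12.1 in epithelium and 14.4 in fibers at E14.5, and 20.5 in epithelium and 18.2 in fibers at P0.5, at chr2:74715778-74716356. It was the strongest peak at any Hox gene in both epithelial lists, with fold enrichments of 20.3 and 11.5. Its summit lies 3988 bp into Hoxd3 and within 2 kb of the start of Hoxd3os1, a noncoding RNA gene on the other strand, which starts at position 74716130. The 200 bases around that summit (chr2:74715881-74716080, plus strand) and around the summit of the intronic Hoxa3 region (chr6:52211652-52211851, minus strand), the strongest Hox peak in E14.5 fibers, are shown with CpGs in capitals.
Hoxd3 intron: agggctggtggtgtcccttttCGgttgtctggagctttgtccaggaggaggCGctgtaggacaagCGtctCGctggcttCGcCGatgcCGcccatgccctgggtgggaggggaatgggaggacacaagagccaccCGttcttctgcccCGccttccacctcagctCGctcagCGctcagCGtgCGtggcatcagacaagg
Hoxa3 intron: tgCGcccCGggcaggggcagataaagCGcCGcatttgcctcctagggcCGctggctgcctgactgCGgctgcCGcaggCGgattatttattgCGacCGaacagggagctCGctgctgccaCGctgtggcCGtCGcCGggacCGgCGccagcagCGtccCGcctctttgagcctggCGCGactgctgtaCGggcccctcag
They held 13 and 22 CpGs at 64.0% and 69.5% GC.

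HoxD had calls at most of its promoters in every list, HoxA in every list but P0.5 epithelium, and HoxB and HoxC had them at fewer. Promoter peaks were called at 8, 8, 5 and 8 of the 9 HoxD genes, in the order of lists used above, and at 8, 9, 3 and 9 of the 10 HoxA genes. HoxC had 4, 6, 1 and 4 of 9, and HoxB had 3, 5, 1 and 4 of 10. By the median percent rank of the promoter peaks, HoxD came first in both E14.5 lists, at 29.1 in epithelium and 20.1 in fibers, against 48.8 and 25.2 for HoxA, 68.5 and 58.1 for HoxB and 59.7 and 62.5 for HoxC. At P0.5 it did not: HoxA had 52.3 and HoxD 75.7 in epithelium, and HoxC had 30.6, HoxA 34.7 and HoxD 37.6 in fibers. In HoxB the strongest promoter peak of any list was that of Hoxb8 in E14.5 fibers, at 36.0.

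By place along the clusters, the posterior genes had calls at 12, 13, 6 and 12 of 16 in the same order of lists, the anterior genes at 6, 6, 3 and 8 of 11, and the central genes at 5, 9, 1 and 5 of 11. The 1 central gene with a call in P0.5 epithelium was Hoxd8. The central genes of HoxA and HoxB had none there, although Hoxa5, a gene of lung and neck skeleton, had percent ranks of 50.8, 22.8 and 26.4 in the other lists. Cluster and position are not separate here, since HoxD holds 1 central gene and HoxB 4.

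By the share of bases under peaks, HoxD came first in 3 lists, and HoxA and HoxD were level in P0.5 fibers. HoxD, at chr2:74668225-74765142, was covered to 9.64% in epithelium and 12.8% in fibers at E14.5, and 1.85% in epithelium and 3.67% in fibers at P0.5. HoxA, at chr6:52162417-52260880, was covered to 5.88%, 8.7%, 0.794% and 3.68%, HoxC, at chr15:102921131-103036852, to 2.29%, 3.98%, 0.124% and 0.938%, and HoxB, at chr11:96194316-96368253, to 0.634%, 2.1%, 0.154% and 0.573%. The clusters together had 3.89%, 6.03%, 0.615% and 1.91% of their bases under peaks. This was above the share of the genome in 3 lists and below it in P0.5 epithelium, where the genome had 0.742%.

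Hox gene bodies gave the same contrast. They were covered to 5.81%, 10.1%, 0.733% and 3.77%, against 2.49%, 4.24%, 1.29% and 1.3% over the bodies of all protein-coding genes. The Hox bodies were thus above other genes in 3 lists and below them in P0.5 epithelium. In the promoter windows themselves the mean share covered was 8.01%, 11.8%, 1.21% and 4.92% for Hox genes, below the 19.8%, 25.3%, 13.4% and 11.5% of all genes. Of the 100 kb flanks, those on the posterior side of HoxD, at 3.52%, 6.66%, 1.63% and 1.84%, and of HoxA, at 2.02%, 2.44%, 0.825% and 1.71%, were above the genome in every list, while both HoxB flanks were below it in every list.

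**Figure D3:**
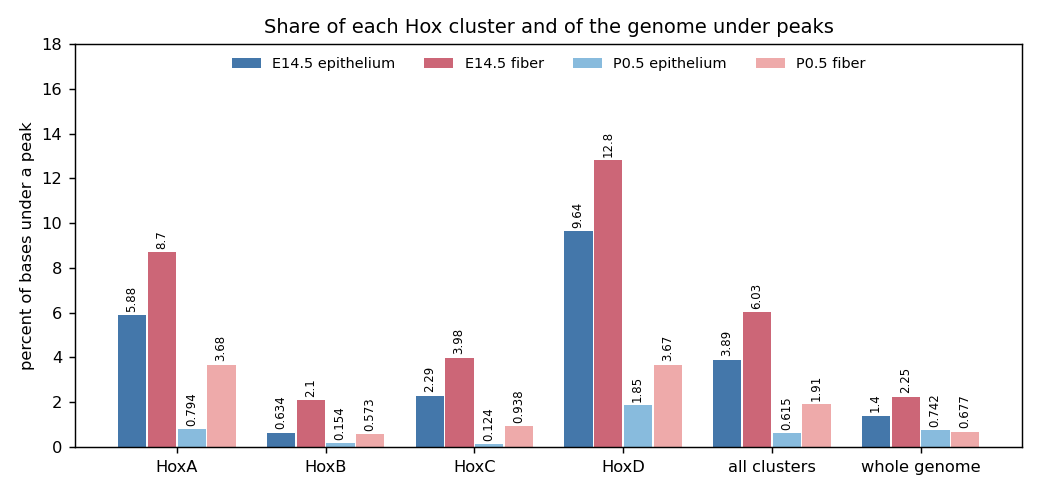
Percent of bases under a peak (y axis) in each Hox cluster, in the clusters together and in the genome (x axis), with 1 bar per pooled list. The bar of P0.5 epithelium is the lowest in each cluster, and for the clusters together its 0.615% is below the 0.742% of the genome.

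From E14.5 to P0.5, epithelium lost calls at many Hox promoters and gained none, where 1.49% of all genes called at P0.5 had no E14.5 call. Of the 23 Hox genes with a promoter peak in E14.5 epithelium, 13 (56.5%) had none in P0.5 epithelium, against 6.14% of all protein-coding genes with one at E14.5. They were Hoxa4, Hoxa5, Hoxa7, Hoxa9, Hoxa11, Hoxb6, Hoxb8, Hoxc4, Hoxc10, Hoxc11, Hoxd3, Hoxd10 and Hoxd11. Among CpG-rich promoters, 8 of 16 Hox genes had no P0.5 call, against 1.26%. The genes without a P0.5 call included strong ones of E14.5: Hoxd10 at 27.7 and Hoxc10, a gene of the lumbar region, at 29.0. The 10 genes with a call at both stages had percent ranks from 31.6 to 86.7 at P0.5. Of these, 9 had a weaker percent rank at P0.5 than at E14.5, and Hoxd8 a stronger one, while 18.6% of all genes called at both stages were stronger at P0.5. This order depends on the scale, since the lists differ in length and by place in the list, counted from the strongest peak, 5 of the 10 stood higher at P0.5, against 50.9% of all genes. With the lists cut to equal numbers of peaks, 17 Hox promoters had a call at E14.5 and 10 at P0.5, of which 8 and 1 were called at that stage only, and with q under 0.001 the P0.5 count was 5, against 66.0% of all genes.

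Fibers lost calls between the stages and, at the authors' threshold, also gained some. Of the 28 Hox genes with a promoter peak in E14.5 fibers, 9 (32.1%) had none in P0.5 fibers, against 11.6% of all genes. These were Hoxa6, Hoxb2, Hoxb7, Hoxb8, Hoxb9, Hoxc4, Hoxc6, Hoxc9 and Hoxd10, of which 4 are HoxB genes. Among CpG-rich promoters 4 of 19 had no P0.5 call, against 3.05%. A P0.5 call without an E14.5 call was found at 6 of the 25 genes (24.0%), against 2.65% of all genes: Hoxa2, which sets the identity of the second pharyngeal arch, Hoxb1 and Hoxb3, which act in the hindbrain, Hoxb13, Hoxc11 and Hoxd4. These were weak, with percent ranks of 91.3 at Hoxa2, Hoxb13, Hoxc11 and Hoxd4 and 69.2 at Hoxb1 and Hoxb3. With q under 0.001, 0 of 12 genes were such cases, close to the 1.07% of all genes. Under that rule 16 of 28 had an E14.5 call alone, against 17.3% of all genes. Of the 19 genes called in fibers at both stages, 5 had a stronger percent rank at P0.5, namely Hoxa9, Hoxa11, Hoxc5, Hoxc13 and Hoxd11, against 15.7% of all genes. By place in the list this turned, with 15 of 19 higher at P0.5, against 53.8%. At some of these genes the lists called different sites. The Hoxc5 peaks, at 71.6 in the earlier and 26.4 in the later list, lay in separate regions, and at Hoxc13 the region called at 18.2 in the later list had 64.1 in the earlier one, whose best peak of 45.8 lay elsewhere. Among the 11 genes whose best promoter peaks at the 2 stages lay in 1 merged region, 2 were stronger at P0.5, Hoxa11 and Hoxd11, against 14.8% of all such genes. With equal numbers of peaks the order of the fiber stages turned, to 17 and 21 Hox promoters. Of these, 4 (23.5%, against 8.65% of all genes) and 8 (38.1%, against 4.92%) were called at that stage only. With q under 0.001 the Hox promoters numbered 28 and 12.

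Between tissues, calls were mostly shared at E14.5, and at P0.5 most fiber calls were missing from epithelium. At E14.5, 21 Hox promoters had a peak in both tissues, 7 in fibers alone (25.0% of the 28 fiber calls, against 3.51% of all genes; with equal numbers of peaks 1 of 17, against 2.65%) and 2, Hoxb3 and Hoxc11, in epithelium alone. The latter were 8.7% of the 23 epithelial calls, against 2.26% of all genes and 0.125% of CpG-rich ones, where 1 of 16 Hox genes was such a case. At P0.5 every one of the 10 Hox promoters called in epithelium was also called in fibers, while for all genes 8.73% of epithelial calls, and 2.48% at CpG-rich promoters, were missing from fibers. The sites differed at 5 of the 10, however: at Hoxa3, Hoxa10, Hoxb3, Hoxc13 and Hoxd12 no merged region was called in both, against 1.75% of all genes called in both. With q under 0.001, 2 of the 5 epithelial calls left, Hoxd8 and Hoxd12, were missing from fibers, against 13.9% of all genes, and with equal numbers of peaks 1 of 10, Hoxd8, against 9.17%. A further 15 Hox promoters, 60.0% of the 25 fiber calls, were called in P0.5 fibers alone, against 5.43% of all genes. With q under 0.001 it was 9 of 12, against 2.9%, and with equal numbers of peaks 12 of 21, against 5.11%. Of the 21 Hox promoters called in both tissues at E14.5, 20 had a stronger percent rank in fibers, against 72.8% of all genes. The exception was Hoxa11, a gene of the uterus and forearm, at 50.8 in epithelium and 58.1 in fibers. At P0.5, 9 of the 10 had the stronger best peak in fibers, against 57.5% of all genes, and Hoxd8 was the exception. Where the best peaks of both tissues lay in 1 merged region, 17 of 17 Hox genes had the stronger percent rank in fibers at E14.5, against 72.9% of all genes, and 4 of 5 at P0.5, against 57.4%. A percent rank is lower in a longer list for the same place: by place in the list, 15 of the 21 Hox genes stood higher in fibers at E14.5, against 53.5% of all genes, and 9 of 10 at P0.5, against 53.8%. The E14.5 genes that turned were Hoxa7, Hoxc4, Hoxc10, Hoxc13 and Hoxd11. Where the best peaks lay in 1 merged region, 14 of 17 Hox genes stood higher in fibers by place at E14.5, and 4 of 5 at P0.5. For this count no share over all genes is given.

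Merging the peaks of the 4 lists at a distance of 10 bp gave 75 regions at Hox genes among 185271. HoxA held 28, HoxB 10, HoxC 12 and HoxD 25. Of the 75, 44 (58.7%) were called in E14.5 epithelium, against 49.4% of all regions, and 51 (68.0%) in E14.5 fibers, against 66.1%. In P0.5 epithelium 12 (16.0%) were called, against 28.0%, and in P0.5 fibers 33 (44.0%), against 30.0%. The regions of P0.5 epithelium were therefore under, and those of P0.5 fibers over, the share among all regions. With q under 0.001 the P0.5 fiber share was 13 of 59 (22.0%), close to the 19.9% of all regions, and when a list had to cover 50% of a region it was 20 of 75 (26.7%, against 19.8%). The 6 called in all 4 lists (8.0%, against 10.9%) lay at Hoxd13, Hoxd9, Hoxd8, Hoxd1, Hoxa13 and in the Hoxd3 intron. With q under 0.001 there were 2 such regions, and when every list had to cover 50% of the region there were 0. The share over all regions is not given for these rules, so the fall cannot be read as particular to Hox genes.

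By combination of lists, 11 regions (14.7%) were called in both E14.5 lists and in P0.5 fibers but not in P0.5 epithelium, a combination held by 2.42% of all regions. A further 12 (16.0%, against 11.4%) were called in both E14.5 lists alone. The reverse combination, both E14.5 lists and P0.5 epithelium without P0.5 fibers, was held by 4 (5.33%, against 8.42%). Those 4 were the intronic Hoxa3 region, a region 1877 bp before Hoxd12, a region in an exon of Hoxa10 and the region before Hoxc13. In P0.5 epithelium alone 2 regions were called (2.67%, against 4.63%), at percent ranks of 86.7 near Hoxb3 and 96.5 in Hoxd3.

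**Figure D4:**
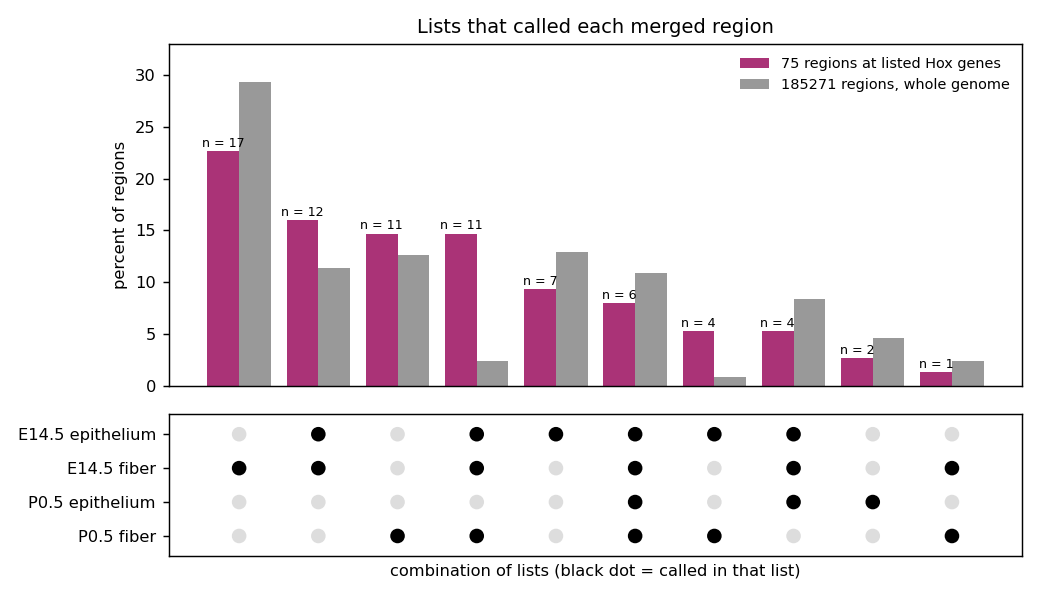
Percent of merged regions (y axis) by the combination of lists that called them (x axis, black dots), for the 75 regions at Hox genes, whose number stands above each bar, and for all 185271 regions. The combination of both E14.5 lists with P0.5 fibers holds 14.7% of the Hox regions and 2.42% of all.

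The regions were taken for touching a promoter or gene body, so a place inside the genes follows in large part from the rule. The summit was in an exon of a Hox gene at 34 of the 75, in an intron at 26 and outside gene bodies at 15, and 26 lay within 500 bp of the nearest Hox start site. The regions had a median of 62.6% GC and an observed to expected CpG ratio of 0.699, against 52.9% and 0.239 over all regions, with a median width of 331 bp against 241 bp. Neighbouring genes share sites in places: the peak counted at the Hoxb7 promoter in E14.5 fibers, at 38.0, has its summit in an exon of Hoxb8.

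**Figure D5:**
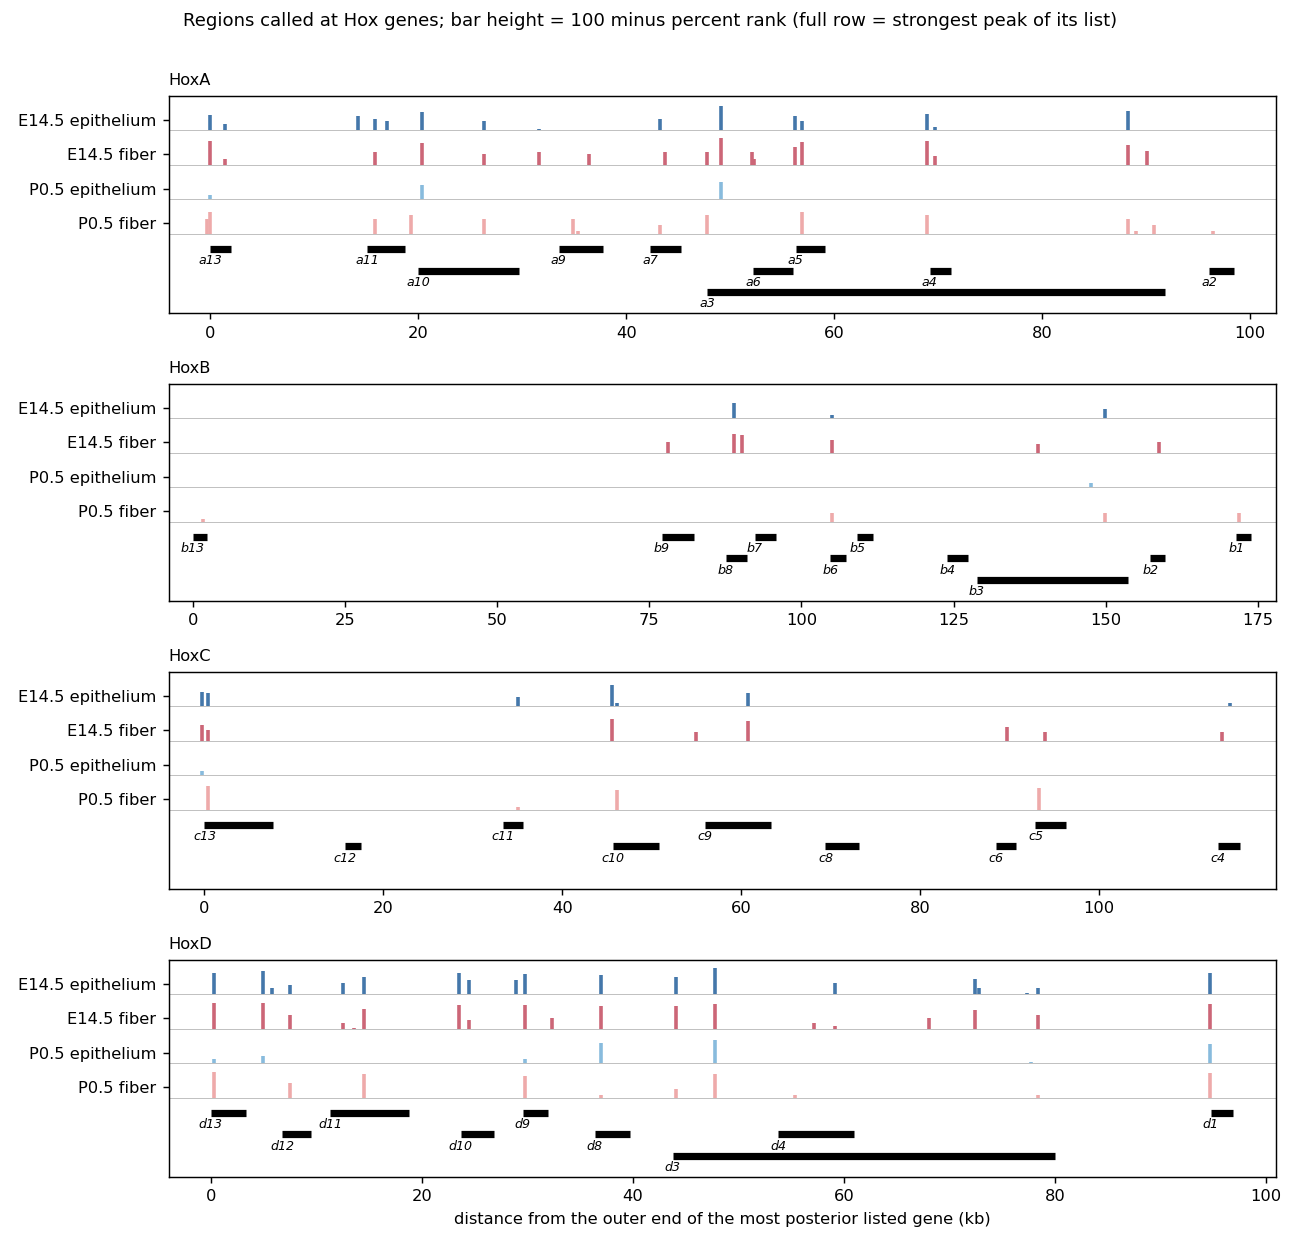
Regions called at Hox genes along each cluster (x axis, kb from the outer end of the most posterior listed gene, anterior genes to the right), with 1 row per list and a bar at the summit of each region whose height is 100 minus the percent rank. Black bars are gene bodies, with the posterior genes at the left; the HoxB row of P0.5 epithelium has 1 short bar, and HoxD has 7 of the 12 bars of P0.5 epithelium.

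CTCF is the insulator protein whose sites divide Hox clusters into domains. Its core consensus of 12 letters, searched on both strands, had no exact match in the 75 regions (0.0%, Wilson 95% interval 0.0% to 4.87%), against 2.56% of all regions. The interval covers counting error only. With 1 mismatch allowed, 4 regions (5.33%, interval 2.09% to 12.9%) held a match, against 11.1% of all. Over the whole of the clusters there was 1 exact match, in HoxB and under no peak, and of 34 matches with 1 mismatch 8 lay under a peak. Each of the 4 regions is given by the match nearest its summit, in capitals, with 10 bases on both sides, on the strand of the match in mm10.
Hoxd12, chr2:74673178-74673189, minus strand: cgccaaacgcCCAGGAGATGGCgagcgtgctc
Hoxd3, chr2:74712151-74712162, plus strand: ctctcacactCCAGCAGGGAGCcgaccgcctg
Hoxa5, chr6:52204659-52204670, minus strand: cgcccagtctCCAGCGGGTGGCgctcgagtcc
Hoxa10, chr6:52240541-52240552, minus strand: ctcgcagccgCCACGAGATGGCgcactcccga
The Hoxd12 and Hoxa10 regions are among the 4 that were called in all lists but P0.5 fibers. A match is a description of letters and not a measured site.

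Noncoding RNA genes inside or next to the clusters had promoter peaks at 6, 7, 3 and 5 of 12 in the order used above. Hoxd3os1 led them with the intronic Hoxd3 peak, and Hottip, which lies beyond Hoxa13, had percent ranks of 46.8, 20.1, 86.7 and 26.4, those of the Hoxa13 peak that it shares. Hotairm1, which starts beyond Hoxa2, was called in every list as well, at 13.3, 20.7, 33.9 and 34.7. Its peak in P0.5 epithelium was 809 bp wide, while the widest at a listed Hox gene there was 476 bp. The microRNA genes Mir10a, Mir196a-1 and Mir196a-2 and the RNA genes Hotair and Hoxb5os had none in any list, while Mir196b had 61.2 and 58.1 in the E14.5 lists only.

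The ParaHox and Evx genes, the nearest relatives of the Hox genes, had promoter peaks at 7, 8, 3 and 3 of 8, with medians of 50.8, 45.3, 66.3 and 48.9. They thus shared the few and weak calls of the Hox genes in P0.5 epithelium, and unlike the Hox genes had as few in P0.5 fibers. Cdx2, a gene of the gut and trophoblast, had 50.8 and 31.0 in epithelium and fibers of E14.5, 14.0 in P0.5 fibers and no call in P0.5 epithelium. Evx2, next to Hoxd13, had 46.8 and 17.1 at E14.5 and no promoter call at P0.5.

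The genes whose products act with or on Hox genes were called nearly throughout. The share called in a list was 64.6% to 71.2% of all genes and 95.9% to 98.8% of CpG-rich promoters, so such calls are common. The 9 genes of Meis, Pbx and Pknox cofactors, which bind DNA together with Hox proteins, had promoter peaks in every list, with medians of 3.39, 5.09, 6.4 and 8.49. All 11 genes of Polycomb repressive complex 2, which writes the silencing mark on histone H3, and all 16 of complex 1, which binds it, had them in every list. Trithorax genes had them at 7, 7, 7 and 6 of 7, the exception being Rbbp5 in P0.5 fibers.

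The labelled tissues were checked on marker genes. Lens regulators such as Pax6 and Prox1 had promoter peaks at 10 of 10 in every list, with medians of 4.77, 2.78, 12.3 and 8.9. Lens fiber markers had medians of 11.2 in epithelium and 1.71 in fibers at E14.5, and of 20.5 and 7.06 at P0.5, stronger in fibers at both stages. Lens epithelium markers had medians of 4.26, 7.1, 8.7 and 9.32, but did not separate the tissues: 3 of 5 were stronger in fibers at E14.5, Pax6, Pitx3 and Cdh1, and 3 of 5 at P0.5, Pax6, Pitx3 and Tfap2a. Of all genes called in both tissues, 72.8% at E14.5 and 57.5% at P0.5 were stronger in fibers. With gene bodies included, at E14.5 Cdh1 was stronger in epithelium (9.01 against 19.5) and Tfap2a in fibers (2.23 against 3.77). Markers of other cells had promoter peaks too: endothelium at 5, 5, 4 and 3 of 6, blood at 3, 3, 1 and 2 of 5, neural retina at 4, 4, 3 and 1 of 4 and periocular mesenchyme, the tissue around the lens, at 5 of 5 in every list. With gene bodies included, endothelium had 6, 6, 6 and 5, blood 4, 4, 4 and 3, and neural retina 4, 4, 4 and 3. The blood marker Gata1 had no peak in any list, and Ptprc had none at its promoter but had peaks in its body at 16.4 and 45.8 in the E14.5 lists and at 16.5 in P0.5 epithelium, a stronger rank than that of any Hox peak there. The part of other cells in the Hox calls was not tested.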

How the data were processed

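ATAC-seq libraries of 4 groups, 2 per group, were used as the authors' 4 pooled peak lists. Per the submitters' processing notes and the study's methods, reads were trimmed with Trim Galore 0.4.1, mapped to mm10 with Bowtie2 2.3.3.1, cleared of mitochondrial and duplicated reads with SAMtools 1.2 and Picard 2.1.1. Peaks were called with MACS2 2.1 at a q value of 0.05. The study's methods describe calling by sample; the 4 lists used here are named as pooled, and the study's read summary counts peaks both by library and by group, so they were taken as calls on the joined libraries of a group. The deposited lists hold, for each peak, a MACS2 score, the fold enrichment at the summit (a ratio of pooled reads to local background), −log10 p and −log10 q, and the authors' summit offset in bases. No transposase shift or control library is stated. Fold enrichment depends on the depth of a list, so it was used only as a rank within a list, with ties at their best rank. Depth per library is not in the lists, and the study's read totals were not used.

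Gene models were curated RefSeq transcripts of GRCm38.p6, and all peaks on the 21 chromosomes lay within the chromosome lengths of that build; the few peaks on other sequences entered only the list lengths and ranks. Overlaps were counted with Python 3.11.15 and pandas 2.3.3, regions were merged with bedtools 2.31.1, bases were read with pysam 0.24.0, and Wilson 95% intervals came from scipy 1.17.1. The counting steps were tested on simulated peaks of known placement. A gene is the unit of every count, and the same counts over all genes or regions stand beside those of the Hox genes. No test was made, since a pooled list has no replicates.

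The 38 genes were all listed Hox genes, and every one was counted; of peaks, the 3 best ranked and 3 widest per list were named. Other genes came from lists of ParaHox and Evx genes, cofactors, Polycomb and Trithorax genes, noncoding RNA genes inside or next to the clusters, lens regulators and cell type markers. The members and lists were chosen with earlier results of these data known. Alternatives were a q value under 0.001, lists cut to equal numbers of peaks, other promoter, overlap and merge rules, ranking by p value, other motif windows and, chosen after seeing the data, ranks compared only where the best promoter peaks of 2 lists lay in 1 merged region, place in the list in place of percent rank, and calls of 1 list alone under the first 2 alternatives.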

Additional observations from a re-analysis of the deposited data

How the results depend on the processing

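No paired analysis was possible because the deposited lists are pooled over the 2 libraries of each group, and for the same reason no library could be left out. The count of Hox promoters in P0.5 epithelium was the lowest of the 4 lists in every alternative run. With peaks of q under 0.001 only, promoter peaks were found at 20, 28, 5 and 12 Hox genes (E14.5 then P0.5, epithelium before fibers), against 69.5%, 70.1%, 66.0% and 58.6% of all genes. The P0.5 fiber share of cluster bases became 1.09%, and the median percent ranks of P0.5 epithelium and P0.5 fibers 44.3 and 54.0. Of 59 regions, those called at P0.5 became 6 in epithelium (10.2%, against 33.2% of all regions) and 13 in fibers (22.0%, against 19.9%). Those in all 4 lists became 2, for which no share over all regions is given. With equal numbers of peaks the promoter counts were 17, 17, 10 and 21, against 66.8%, 66.7%, 67.0% and 64.1% of all genes, so the order of the fiber stages (28 and 25) turned. The cluster bases covered at E14.5 became 2.43% and 3.1%. There were then 44 regions. E14.5 epithelium called 24 of the 44 (54.5%, against 48.5% of all regions) and E14.5 fibers 22 of the 44, against 51.2%. Both E14.5 shares were thus near those of all regions. P0.5 epithelium called 12 (27.3%, against 45.6%) and P0.5 fibers 26 (59.1%, against 45.5%). Both E14.5 lists alone called 6, for which no share over all regions is given. When a list had to cover 50% of a region, P0.5 epithelium called 3 of 75 (4.0%, against 17.2% of all regions). P0.5 fibers called 20 (26.7%, against 19.8%). The counts were 0 for all lists and 20 for both E14.5 lists alone, for which no share over all regions is given. Allowing 1 mismatch in the CTCF consensus gave 5.33%. Where the best promoter peaks of 2 lists had to lie in 1 merged region, chosen after seeing the data, 4 genes in place of 9 were stronger in fibers than in epithelium at P0.5, and 2 in place of 5 stronger in fibers at P0.5 than at E14.5. The settings after this were also chosen after seeing the data. By place in the list, 5 epithelial genes in place of 1 and 15 fiber genes in place of 5 were stronger at P0.5 than at E14.5. Calls of 1 list alone with q under 0.001 became, between the P0.5 tissues, 2 epithelial and 9 fiber calls (0 and 15 before) and, between the fiber stages, 16 early and 0 late calls (9 and 6 before). These were 40.0%, 75.0%, 57.1% and 0.0% of the Hox calls, against 13.9%, 2.9%, 17.3% and 1.07% for all genes. With equal numbers they were 1 and 1 in the E14.5 tissues (2 and 7), 1 in P0.5 epithelium against fibers, 8 and 1 in the epithelial stages (13 and 0) and 4 in E14.5 fibers against P0.5. Fewer peaks or genes follow from these rules; no other cause was tested. All other alternatives moved counts by under 1.5 times. Unequal depth between lists, which equal numbers address only in part, limits every comparison of calls.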
